A study of Homo sapiens with 9 samples.

Results

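Mitochondrial ribosomal proteins are encoded by nuclear genes named MRPL for the large subunit and MRPS for the small subunit. The rows of the expression table whose symbol was MRPL or MRPS followed by a number, with or without a closing letter A to C, were taken as members, and 78 of the 19389 rows met that rule. The rule reads symbols and no measured value, but it was chosen with earlier results of these data known. By current subunit assignment 51 members belong to the large subunit and 26 to the small subunit. The large-subunit count includes MRPS30 and MRPS18A, which keep small-subunit names. The last member, MRPS36, is now regarded as a subunit of the 2-oxoglutarate dehydrogenase complex (renamed KGD4), and it was kept because the name rule includes it. The members lie on 21 chromosomes.

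RNA was sequenced from SW1353, an established line from a human chondrosarcoma, a cartilage-forming tumour. There were 3 libraries for each of 3 conditions. One set of cells received PBSL, a preparation of Protaetia brevitarsis seulensis (white-spotted flower chafer) larvae, for 2 h and then interleukin-1β (IL-1β) at 20 ng/mL for 20 h. Another received IL-1β alone at that dose and time, and the last was left untreated. All cells had been cultured for 24 h before treatment. The labels list several PBSL concentrations without saying which one the libraries received, no group received PBSL without IL-1β, and whether the 3 libraries of a group were separate cultures is not stated, so p-values measure the spread between libraries, which may be technical. SW1353 is 1 tumour line, so every library carries the genotype of that line.

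The mitochondrial ribosome translates the messenger RNAs of the mitochondrial genome, which encode core subunits of the respiratory chain and of ATP synthase. Its ribosomal RNAs are made in the organelle, while its proteins are made in the cytosol and imported. Some of these proteins have bacterial counterparts, and the others are specific to mitochondria. IL-1β is the cytokine used here to put the cells in an inflammatory state, and in cartilage cells it is known to induce matrix proteases and to depress mitochondrial respiration.

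Of 11 chondrocyte and cartilage genes, 5 stayed under 1 in every library, among them the cartilage collagens COL2A1 (at most 0.027) and COL9A1 (at most 0.013). Others were present: SOX9 lay between 8.003 and 12.8, and the highest library reached 13.3 for COL10A1, 3.73 for COL11A1, 2.85 for HAPLN1 and 2.15 for ACAN. All 5 tested genes of that list changed with IL-1β alone over untreated, 2 higher and 3 lower (16.2% and 16.0% of all tested genes). HAPLN1 entered the test through the untreated libraries alone, all others being under 1. ACAN entered through the IL-1β-treated libraries alone, all untreated ones being under 1. The differences of HAPLN1 and ACAN are therefore descriptions. All 5 endothelial markers stayed under 1 in every library and the leukocyte gene PTPRC did not exceed 0.393. The summed epithelial list, carried by KRT8 and KRT18, was 57.9 to 77.2 in PBSL plus IL-1β, 76.9 to 78.5 in IL-1β alone and 138 to 156 in untreated libraries, and the summed leukocyte list, carried by CD68, was 86.1 to 91.0 in PBSL plus IL-1β, 100.2 to 104 in IL-1β alone and 73.5 to 80.4 in untreated libraries. The summed mesenchymal list, carried by VIM, COL1A1 and COL1A2, was 4549 to 5162 in PBSL plus IL-1β, 5621 to 5693 in IL-1β alone and 5094 to 5399 in untreated libraries. In PBSL plus IL-1β over IL-1β alone 4 of its 5 tested genes fell, with a median log2 fold change of -0.73 over the 5, and COL1A1 was 1171, 845 and 853 in PBSL plus IL-1β, against 1549, 1579 and 1560 in IL-1β alone. The part of these lists in the results below was not tested. In a principal component analysis of the tested genes the second component (16.6% of the variance) placed PBSL plus IL-1β library 1 at 0.578, between libraries 2 and 3 of its group (18.2 and 16.8) and the IL-1β libraries (-12.4 to -11.5). The total counts of members called higher and lower in PBSL plus IL-1β are therefore also given without library 1, and other counts are given with all libraries only.

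All 78 members were expressed. Values are the authors' normalized expression values, for which neither the formula nor a division by transcript length is stated, so the order of genes is an order of deposited values and not of transcripts per cell. They ran from 6.09 to 351, and the median of the members' means over 9 libraries was 34.2. The 5 highest means belonged to MRPS24 (286), MRPL33 (210.2), MRPL51 (159), MRPL52 (90.6) and MRPL20 (81.0). MRPS24, the counterpart of bacterial uS3 at the channel where messenger RNA enters, stood above MRPL33 in every IL-1β-treated library and below it in every untreated library. The 5 lowest belonged to MRPS31 (6.99), MRPL1 (8.07), MRPL50 (10.2), MRPL48 (11.96) and MRPS18C (12.2), and the last 2 of these overlapped in their libraries. The coefficient of variation between libraries, as a median over the members, was 7.38% in PBSL plus IL-1β, 3.95% in IL-1β alone and 4.67% in untreated cells.

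**Figure D1:**
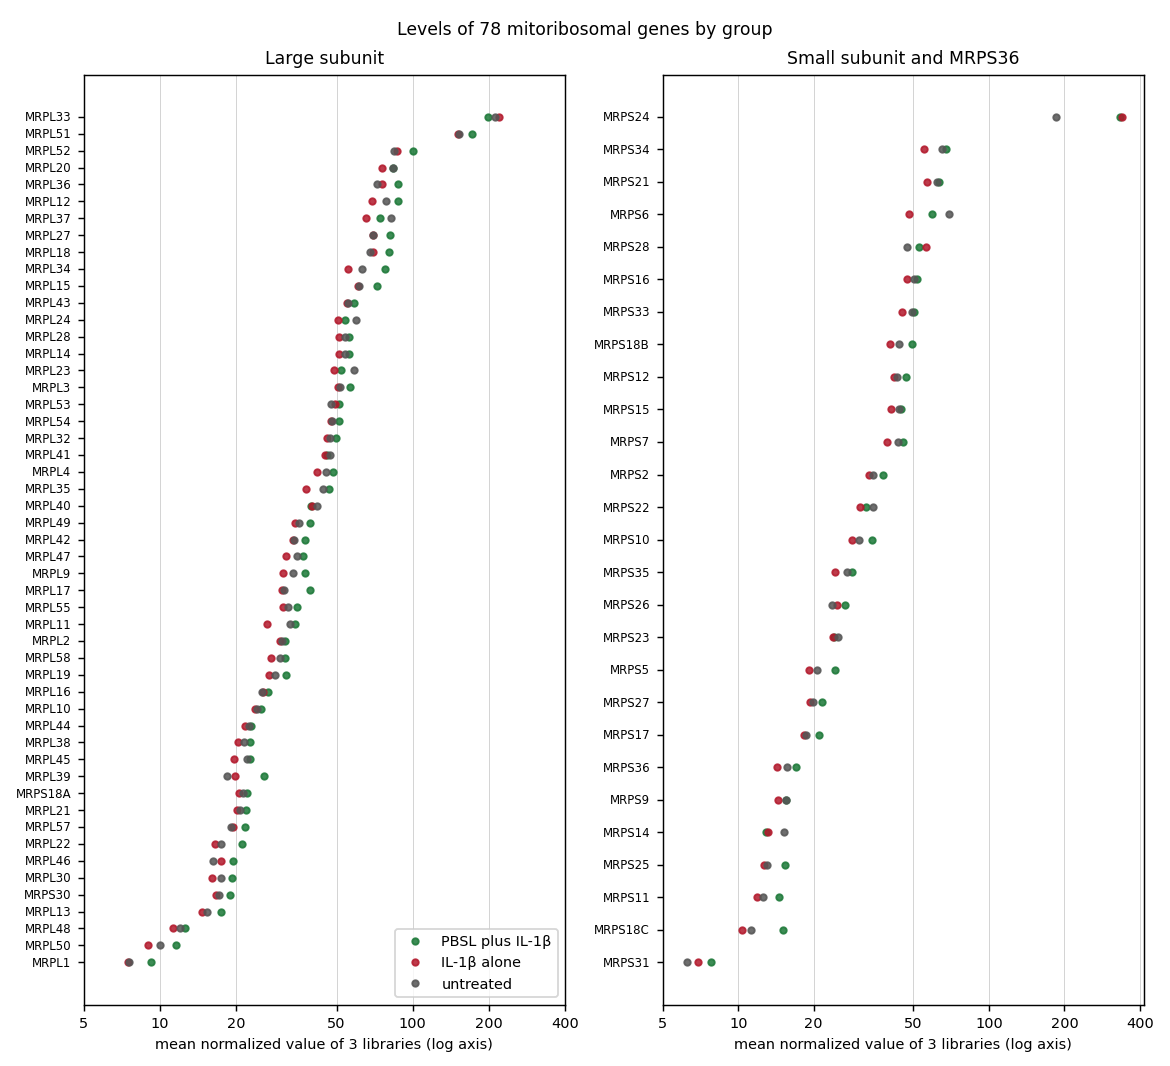
Mean deposited value of each of the 78 members in PBSL plus IL-1β (green), IL-1β alone (red) and untreated libraries (grey), 3 libraries each, on a log axis, with the large subunit on the left and the small subunit with MRPS36 on the right. MRPS24 has means of 334 and 339 in PBSL plus IL-1β and IL-1β alone and of 185 in untreated libraries, and the green point is to the right of the red one in 73 of 78 rows.

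Sequence before the transcription start was available for 69 members from RefSeq (GRCh38.p14). The entries looked for and not matched were MRPL2, MRPL10, MRPL13, MRPL15, MRPL21, MRPL23, MRPL35, MRPS28 and MRPS36. In the 250 bases before the start, on either strand, the ETS core CCGGAAG, which the factor GABP binds, was found in 23 of 69 members (33.3%), against 16.7% of the 9518 tested genes with an entry and 8.82% of all 27305 entries. The motif of NRF1, a regulator of nuclear genes for mitochondria, was in 8 members (11.6%), against 10.8% of tested genes and 5.53% of all entries. The E-box CACGTG was in 6 (8.7%), against 8.97% and 6.49%, and the NF-κB motif in 2 (2.9%), against 0.57% and 0.55%. The YY1 core AAGATGGC was in 5 (7.2%), against 1.89% and 1.37%, and in 20 of 69 once the first 50 transcribed bases were added, against 5.66% and 3.03%. Median GC content of the 250 bases was 60.8% in members, 64.8% in tested genes and 58.0% in all entries. The AAG that ends the ETS core can also begin the YY1 core, and such shared letters counted for both. A match is a description of these letters only.

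The sequences of 4 members that were higher in PBSL plus IL-1β than in IL-1β alone are shown because they span the range of motif content: 3 ETS matches in MRPS34, a mitochondria-specific protein of the small subunit, 2 in MRPL58, a peptidyl-tRNA hydrolase built into the large subunit, 1 E-box in MRPL37, a mitochondria-specific protein of the large subunit, and no match in MRPL34, the member with the largest fitted change in that comparison. Each runs 5′ to 3′ and ends at the last base before the start, and capitals mark the matches, CTTCCGG being the ETS core read on the other strand. The window of MRPS34 is chr16:1773135-1773384 on the minus strand, and its last 21 bases lie in an exon that GENCODE 29 gives the gene. MRPL58 is chr17:75012420-75012669, MRPL37 chr1:54199917-54200166 and MRPL34 chr19:17292323-17292572, all on the plus strand.
MRPS34: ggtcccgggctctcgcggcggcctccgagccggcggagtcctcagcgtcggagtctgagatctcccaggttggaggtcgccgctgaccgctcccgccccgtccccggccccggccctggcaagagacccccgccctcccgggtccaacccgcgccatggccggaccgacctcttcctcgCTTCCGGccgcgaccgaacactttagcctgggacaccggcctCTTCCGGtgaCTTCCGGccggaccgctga
MRPL58: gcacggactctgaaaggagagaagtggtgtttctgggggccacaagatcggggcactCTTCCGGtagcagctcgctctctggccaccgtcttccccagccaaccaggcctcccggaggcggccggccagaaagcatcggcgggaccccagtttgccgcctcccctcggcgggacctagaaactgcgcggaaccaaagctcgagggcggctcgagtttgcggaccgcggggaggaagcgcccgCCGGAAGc
MRPL37: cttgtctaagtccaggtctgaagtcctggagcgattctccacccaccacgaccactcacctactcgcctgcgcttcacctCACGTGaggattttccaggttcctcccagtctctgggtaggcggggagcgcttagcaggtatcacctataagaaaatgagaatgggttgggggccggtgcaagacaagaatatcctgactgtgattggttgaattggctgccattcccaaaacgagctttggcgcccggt
MRPL34: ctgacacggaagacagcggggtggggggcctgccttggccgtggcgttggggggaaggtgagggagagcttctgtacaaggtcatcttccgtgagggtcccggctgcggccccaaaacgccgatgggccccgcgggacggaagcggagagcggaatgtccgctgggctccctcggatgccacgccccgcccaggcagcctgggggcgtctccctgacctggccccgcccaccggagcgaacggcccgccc
The ETS matches of MRPS34 begin 71, 29 and 19 bases before the start, those of MRPL58 193 and 8 bases before it, and the E-box of MRPL37 170 bases before it. Of the 24 members called higher in PBSL plus IL-1β over IL-1β alone, 23 had an entry and 4 held the ETS core, while of the 54 members not called 46 had an entry and 19 held it.

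IL-1β was first set against no treatment. With IL-1β alone, 2 members rose, 8 fell and 68 did not pass the test. Across all 11924 genes tested, 16.2% were called higher and 16.0% lower, so that 2.56% and 10.3% of members stood below both of those shares. The median log2 fold change of the members was -0.068, against -0.0049 over all tested genes, and 64 of 78 estimates were negative. In 4 members all 3 IL-1β libraries lay above all 3 untreated libraries (background 25.7%), and in 23 they lay below (29.5%, background 27.1%). Without untreated library 1 the lower count was 4 (12.2% of all tested genes lower). Without IL-1β library 1 or 2 it was 5 (12.1% and 12.2%). The higher count was 1 without IL-1β library 1 (13.0% of all tested genes higher). In bulk RNA, fewer cells and less RNA per cell cannot be told apart.

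Among small-subunit proteins with a bacterial counterpart, MRPS24 (chr7:43866558-43869893, minus strand) had values of 337, 347 and 334 with IL-1β, against 191, 181 and 184 in untreated libraries. The groups lay far apart compared with their spread, at 1.83 times the untreated mean, with a log2 fold change of 0.87 ± 0.05 (SE; limma adjusted p = 8.57e-08). MRPS24 remained called in all 18 alternative settings, with adjusted p from 3.45e-08 to 2.39e-06. MRPS28, counterpart of bacterial bS1, had 58.3, 52.3 and 57.2 with IL-1β, against 48.0, 44.7 and 48.6 in untreated libraries. Its change was 0.24 ± 0.06 on the log2 scale (limma adjusted p = 0.0096), and it lost the call without IL-1β library 1 (adjusted p = 0.0509). MRPS6 (chr21:34073224-34143034, plus strand), the counterpart of bacterial bS6, had 50.1, 47.7 and 46.7 with IL-1β, against 65.8, 66.3 and 75.6 in untreated libraries. Every IL-1β library was below every untreated one, and the log2 fold change was -0.51 ± 0.07 (limma adjusted p = 2.47e-04). MRPS14, counterpart of uS14, also fell (-0.20, adjusted p = 0.0412), though 6 of 18 alternatives ended its call.

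Of the large subunit, MRPL37 (chr1:54184041-54225464, plus strand) had 64.3, 64.8 and 66.3 with IL-1β, against 84.7, 80.6 and 81.0 in untreated libraries. The IL-1β libraries were tightly grouped well below the untreated ones, with a log2 fold change of -0.33 ± 0.05 (limma adjusted p = 3.62e-04). MRPL11 (chr11:66435075-66466738, minus strand), the counterpart of bacterial uL11 at the base of the stalk where translation factors dock, had 28.3, 25.3 and 25.7 with IL-1β, against 35.7, 31.3 and 30.9 in untreated libraries. There too the groups did not overlap, and the log2 fold change was -0.29 ± 0.07 (limma adjusted p = 0.00576). MRPL23 and MRPL24, counterparts of uL23 and uL24 near the exit of the peptide tunnel, fell by 0.26 and 0.24 on the log2 scale (adjusted p = 0.0059 and 0.012). MRPL24 lost its call without untreated library 1 (adjusted p = 0.0516) and without IL-1β library 2 (0.0629). The mitochondria-specific small-subunit proteins MRPS34 and MRPS22 fell by 0.24 and 0.17 (adjusted p = 0.0272 and 0.0271), with calls lost in 5 and 4 of 18 alternatives.

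**Figure D2:**
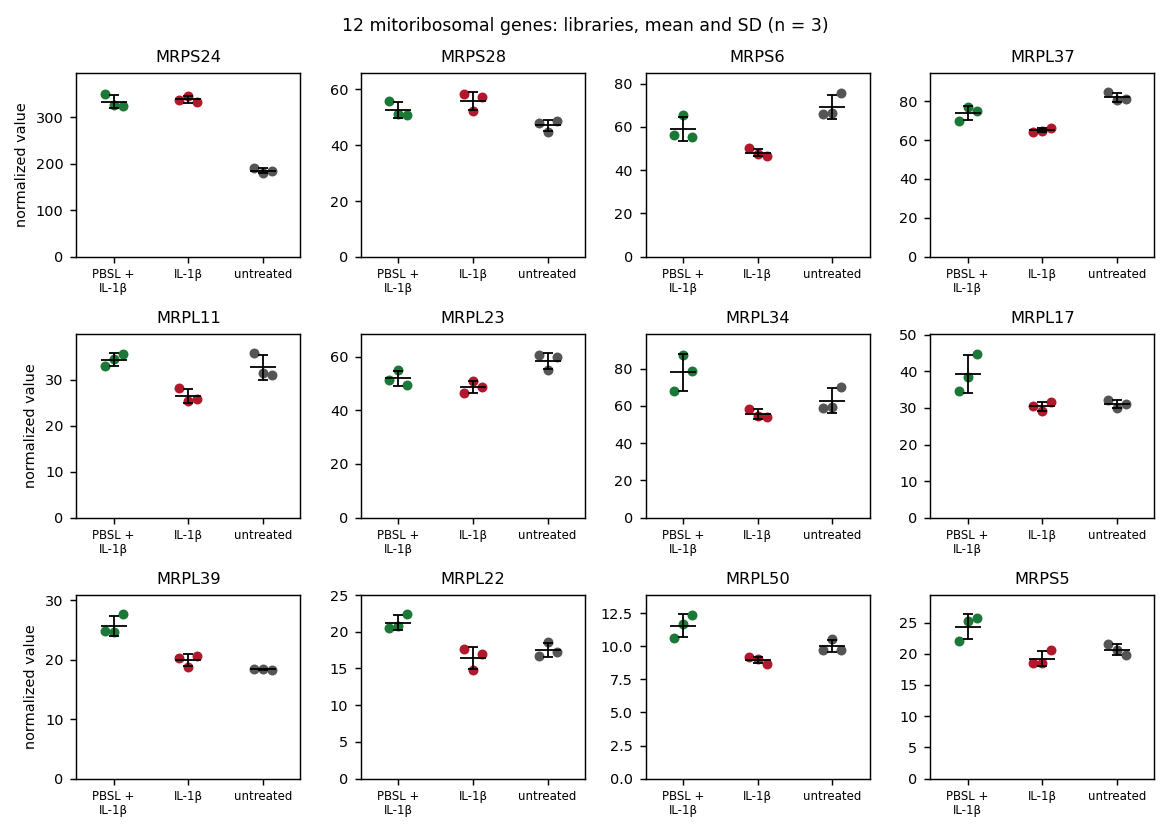
Deposited values of 12 members in each library (points), with the mean and SD of 3 libraries per group, PBSL plus IL-1β at the left of each panel, then IL-1β alone and untreated. MRPS24 is high in all 6 IL-1β-treated libraries, MRPS6, MRPL37 and MRPL11 are lowest in IL-1β alone, and MRPL34, MRPL17, MRPL39, MRPL22, MRPL50 and MRPS5 have their highest mean in PBSL plus IL-1β.

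The second comparison asked what PBSL pretreatment changed in IL-1β-treated cells. Relative to IL-1β alone, 24 members rose (30.8%), none fell and 54 did not pass the test, where all tested genes gave 11.5% called higher and 11% called lower. In limma, the tool used throughout, 44 members were higher and 1 was lower at an unadjusted p under 0.05. The share of all tested genes at that looser threshold was not counted, so the 11.5% and 11% do not apply to these counts. The median log2 fold change of the members was 0.17, against 0.0079 over all tested genes, and 73 of 78 estimates were positive. All 3 PBSL libraries lay above all 3 IL-1β libraries in 45 members (57.7%, background 21.7%) and below them in 1, MRPL33 (background 20.1%). Among the called members the largest change, in MRPL34, was 1.4 times the IL-1β mean. Rescaling by the upper quartile gave 19 members higher and 1 lower, where 1045 of all 11924 tested genes were called higher and 1665 lower. That rescaling moved the share of higher among all called genes to 38.6%, against 51.0%.

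The called members came from both subunits and both origins. In the large subunit 10 of 30 proteins with a bacterial counterpart and 5 of 21 mitochondria-specific ones rose, with median log2 fold changes of 0.21 and 0.15. In the small subunit 6 of 16 with a bacterial counterpart and 3 of 10 mitochondria-specific ones rose, with medians of 0.17 and 0.15. The differences between these classes were not tested.

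MRPL34 (chr19:17292609-17306843, plus strand), the counterpart of bacterial bL34, had 67.9, 87.5 and 78.8 in PBSL plus IL-1β, against 58.6, 54.4 and 54.1 in IL-1β alone. The groups did not overlap, although the PBSL libraries spread more widely, and the log2 fold change was 0.47 ± 0.09 (SE; limma adjusted p = 0.00571). MRPL11 had 32.9, 34.5 and 35.6 in PBSL plus IL-1β, against 28.3, 25.3 and 25.7 in IL-1β alone, a log2 fold change of 0.37 ± 0.07 (limma adjusted p = 0.0049). MRPL17, the counterpart of bL17, had 34.7, 38.4 and 44.8 in PBSL plus IL-1β, against 30.6, 29.04 and 31.6 in IL-1β alone. Its log2 fold change was 0.35 ± 0.08 (limma adjusted p = 0.0112), and the call was lost without IL-1β library 2 (adjusted p = 0.0504). MRPL22, the counterpart of uL22 in the wall of the peptide tunnel, had 20.5, 20.8 and 22.4 in PBSL plus IL-1β, against 17.6, 14.7 and 17.0 in IL-1β alone. Its PBSL libraries stood close together above all IL-1β ones, at 0.35 ± 0.07 on the log2 scale (limma adjusted p = 0.00775). MRPL12, the stalk protein that recruits translation factors, had 86.0, 102 and 74.7 in PBSL plus IL-1β, against 68.2, 69.9 and 69.4 in IL-1β alone. The log2 fold change was 0.32 ± 0.09 (limma adjusted p = 0.0267), and 5 of 18 alternatives ended that call.

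Among mitochondria-specific proteins of the large subunit, MRPL39 (chr21:25585656-25607517, minus strand) had 24.8, 24.7 and 27.6 in PBSL plus IL-1β, against 20.2, 18.8 and 20.7 in IL-1β alone. The log2 fold change was 0.35 ± 0.06 (limma adjusted p = 0.00405). MRPL50 had 10.7, 11.7 and 12.4 in PBSL plus IL-1β, against 9.19, 9.03 and 8.70 in IL-1β alone, and changed by 0.33 ± 0.07 (limma adjusted p = 0.00651). In both genes the lowest PBSL library was above the highest IL-1β library. The small-subunit protein MRPS5, counterpart of uS5, had 22.0, 25.2 and 25.8 in PBSL plus IL-1β, against 18.5, 18.6 and 20.6 in IL-1β alone, with a log2 fold change of 0.32 ± 0.07 (limma adjusted p = 0.00955). The other 16 called members were MRPL4, MRPL9, MRPL15, MRPL18, MRPL19, MRPL37, MRPL51, MRPL58, MRPS6, MRPS7, MRPS10, MRPS11, MRPS17, MRPS18B, MRPS34 and MRPS35, with log2 fold changes from 0.18 to 0.29. Of these, MRPS18B had 45.8, 51.1 and 51.1 in PBSL plus IL-1β, against 40.4, 40.7 and 40.3 in IL-1β alone, with no overlap between the groups (0.28 ± 0.05, limma adjusted p = 0.00555). MRPL15 had 69.1, 77.4 and 70.9 in PBSL plus IL-1β, against 60.03, 60.2 and 61.4 in IL-1β alone, again with no overlap (0.25 ± 0.06, limma adjusted p = 0.0111).

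**Figure D3:**
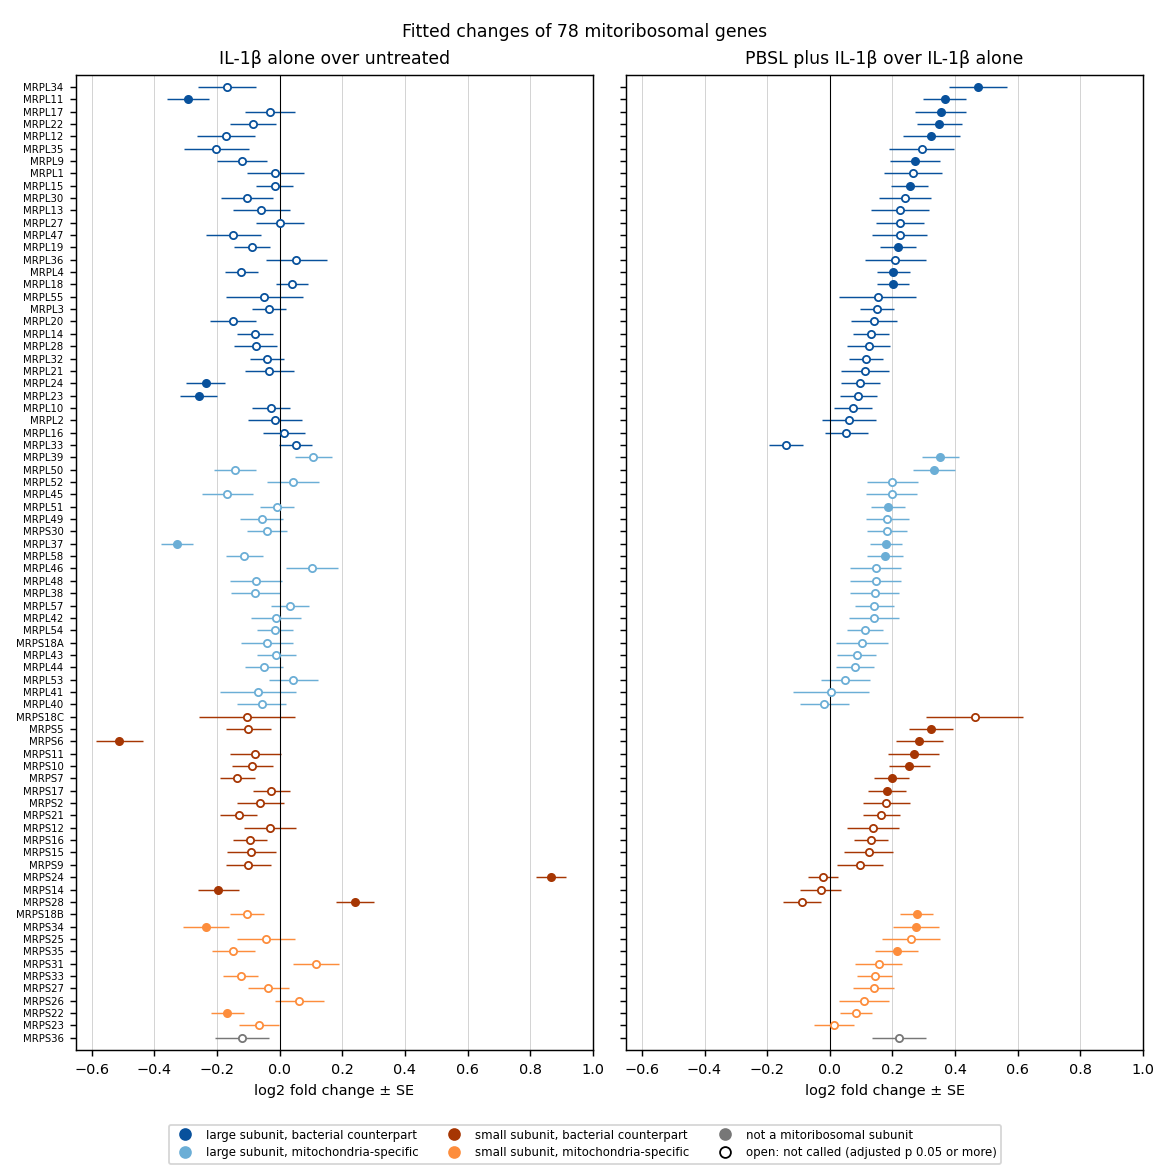
Fitted log2 fold change and SE of each member for IL-1β alone over untreated (left) and PBSL plus IL-1β over IL-1β alone (right), grouped by subunit and origin and ordered within a group by the right panel; filled points passed an adjusted p of 0.05. The left panel holds 2 filled points above 0 and 8 below, and the right panel 24 above 0 and none below.

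The count of 24 depended on single libraries. It was 42 without PBSL library 1, the one that stood nearer the IL-1β libraries, and 13 without PBSL library 2, where 16.9% and 5.98% of all tested genes were called higher. Leaving out IL-1β libraries 1, 2 or 3 gave 11, 11 and 9, with 6.02%, 5.45% and 5.72% of all tested genes, so the count over all genes moved with that of the members. Without PBSL library 1 the median was 0.20 and 1 member was lower, where 15.8% of all tested genes were lower. Of the 24 calls, 8 were made in every alternative: MRPL11, MRPL15, MRPL22, MRPL34, MRPL39, MRPL50, MRPS5 and MRPS18B. Over the libraries singly, the median member stood above the IL-1β mean by 0.11, 0.22 and 0.14 on the log2 scale in PBSL libraries 1, 2 and 3. These libraries had 59, 73 and 57 members above all IL-1β libraries, where 35.0%, 41.4% and 42.4% of all tested genes did so. Summed over the 78 members, the values made up 0.653%, 0.705% and 0.671% of a library's total in PBSL plus IL-1β, 0.608%, 0.603% and 0.604% in IL-1β alone and 0.635%, 0.617% and 0.617% in untreated cells. These shares include MRPS24, the highest member, which was higher in all IL-1β-treated libraries. Without MRPS24 the member values summed to 3262, 3526 and 3280 in PBSL plus IL-1β, 3013, 2986 and 2974 in IL-1β alone and 3245, 3050 and 3166 in untreated cells.

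**Figure D4:**
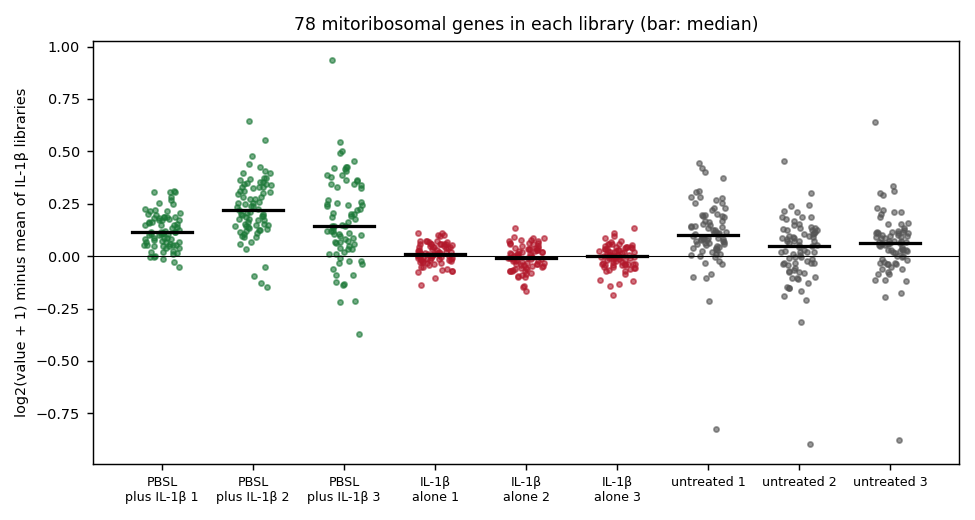
Each point is 1 of the 78 members in 1 library, as log2(value + 1) minus that member's mean over the 3 IL-1β libraries, with the median as a bar; PBSL plus IL-1β is at the left, IL-1β alone in the middle and untreated at the right. The medians of the PBSL libraries are 0.115, 0.222 and 0.143, and the low point in each untreated library is MRPS24.

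Some members moved apart from the others. MRPL33, counterpart of bL33, had 212, 198 and 188 in PBSL plus IL-1β, against 222, 221 and 215 in IL-1β alone. All its PBSL libraries were lower, but the log2 fold change of -0.14 did not pass the test (limma adjusted p = 0.0785). MRPS18C, 1 of 3 proteins related to bacterial bS18, had 11.9, 12.7 and 20.7 in PBSL plus IL-1β, against 10.1, 9.58 and 11.5 in IL-1β alone. Its estimate of 0.46 was the second largest among members, and with PBSL library 3 far above the other 2 it did not pass (limma adjusted p = 0.0511). MRPL41 had 51.0, 52.0 and 34.5 and MRPL55 had 33.5, 43.3 and 27.9 in PBSL plus IL-1β, where the coefficients of variation were 21.4% and 22.3%. MRPS24, with 351, 327 and 325 in PBSL plus IL-1β against 337, 347 and 334 in IL-1β alone, overlapped between those groups (log2 fold change -0.02, limma adjusted p = 0.786). Of the members that had changed with IL-1β, 5 more did not pass in this comparison, with estimates of -0.09 for MRPS28 (adjusted p = 0.319), 0.09 for MRPL23 (0.296), 0.10 for MRPL24 (0.282), 0.08 for MRPS22 (0.271) and -0.03 for MRPS14 (0.787). MRPS36 had 17.2, 14.7 and 18.9 in PBSL plus IL-1β, against 14.5, 13.9 and 14.6 in IL-1β alone, and its estimate of 0.22 did not pass (limma adjusted p = 0.0882).

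The third comparison set PBSL plus IL-1β against untreated cells, and it shares libraries with both others. Here 18 members rose (23.1%) and 4 fell (5.13%), while 22.3% of all tested genes were called higher and 19.3% lower. With all libraries the share called higher is thus near that of all genes. The members' median log2 fold change was 0.099, against 0.031 over all tested genes. All PBSL libraries lay above all untreated ones in 20 members (25.6%, background 26.0%) and below them in 5 (6.41%, background 22.1%). Without PBSL library 1 the counts were 25 higher and 2 lower, where 24.7% of all tested genes were called higher and 20.7% lower. Without PBSL library 2 they were 9 and 3 (19.5% and 17.4% of all genes). Without untreated libraries 1, 2 or 3 they were 12 and 1 (19.7% and 16.7%), 8 and 3 (18.6% and 17.0%), and 10 and 0 (17.2% and 15.6%). The lower count was also 2 without PBSL library 3 or any single IL-1β library (17.9% to 18.2% of all tested genes lower). With upper-quartile rescaling the counts were 7 higher and 7 lower (15.7% and 24.9% of all genes), the median was 0.033, and the share of higher among all called genes was 38.7%, against 53.5%.

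MRPS24 was again the largest change, at 0.85 ± 0.05 on the log2 scale over untreated cells (limma adjusted p = 1.15e-07). MRPL39, with 24.8, 24.7 and 27.6 in PBSL plus IL-1β against 18.4, 18.5 and 18.2 in untreated libraries, changed by 0.46 ± 0.06 (limma adjusted p = 1.01e-04). IL-1β alone over untreated gave MRPL39 an estimate of 0.11 that did not pass (adjusted p = 0.2). MRPL17, MRPL34 and MRPL22 had log2 fold changes of 0.32, 0.30 and 0.27 over untreated cells (adjusted p = 0.00749, 0.0192 and 0.0125), and 4 alternatives ended the call of MRPL34. MRPS31, a mitochondria-specific protein of the small subunit, had 6.98, 8.01 and 8.44 in PBSL plus IL-1β, against 6.43, 6.09 and 6.30 in untreated libraries, at 0.27 ± 0.07 (limma adjusted p = 0.0112). MRPL36, counterpart of bL36, and MRPL1, counterpart of uL1 at the stalk by which transfer RNA leaves, passed with estimates of 0.26 and 0.25 (adjusted p = 0.0489 and 0.0445), and 13 and 12 of 18 alternatives ended their calls. MRPS6 fell by 0.23, MRPS14 by 0.22, MRPL23 by 0.17 and MRPL37 by 0.15 (adjusted p = 0.0294, 0.0176, 0.0419 and 0.0325), each with calls lost in 3 to 11 alternatives. The other 10 members that rose over untreated cells were MRPL15, MRPL18, MRPL27, MRPL46, MRPL50, MRPL51, MRPL52, MRPL57, MRPS5 and MRPS18B, with log2 fold changes from 0.17 to 0.25. Those of MRPL15 and MRPL18, counterparts of uL15 and uL18, were called in all 18 alternatives. MRPS28 (0.15, adjusted p = 0.0624), MRPL12 (0.15, 0.203), MRPL24 (-0.14, 0.0926), MRPL11 (0.07, 0.41), MRPS34 (0.04, 0.681) and MRPS22 (-0.08, 0.212) did not pass over untreated cells. With IL-1β alone over untreated, the estimates were -0.17 for MRPL34 and MRPL12, -0.14 for MRPL50, -0.10 for MRPS5, -0.09 for MRPL22, -0.03 for MRPL17, -0.01 for MRPL1, 0.05 for MRPL36 and 0.12 for MRPS31, and none passed (adjusted p from 0.125 for MRPL50 to 0.925 for MRPL1). MRPL1, MRPL36 and MRPS31 had estimates of 0.27, 0.21 and 0.16 in PBSL plus IL-1β over IL-1β alone that did not pass (adjusted p = 0.0556, 0.143 and 0.149).

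The comparisons share their IL-1β libraries, so estimates that run in opposite directions in the 2 are not independent, and the levels of 4 members described in both are set side by side here. In MRPL11 PBSL plus IL-1β averaged 34.4 ± 1.4, IL-1β alone 26.4 ± 1.6 and untreated cells 32.7 ± 2.6 (SD, n = 3 each). MRPS6 averaged 59.1 ± 5.7 in PBSL plus IL-1β, 48.2 ± 1.8 in IL-1β alone and 69.2 ± 5.5 in untreated cells. MRPL37 averaged 73.9 ± 3.5 in PBSL plus IL-1β, 65.1 ± 1.1 in IL-1β alone and 82.1 ± 2.3 in untreated cells. MRPS34 had 63.3, 74.5 and 63.8 in PBSL plus IL-1β, 53.8, 58.3 and 53.5 in IL-1β alone and 67.0, 60.3 and 68.3 in untreated libraries. PBSL plus IL-1β overlapped the untreated libraries in MRPL11 and MRPS34 and lay below all of them in MRPS6 and MRPL37.

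Annotated exons of other genes overlap many members, on the same strand for 16 and on the opposite strand for 29, and the strand setting used in counting is not given in the sources used here. Among them are MRPS24 and MRPL34, which had the largest called changes of the comparisons. MRPL17, MRPL22, MRPL39 and MRPL50 have no such overlap. MRPS24 shares 606 exon bases (23.2% of its own) with the readthrough gene URGCP-MRPS24, whose values stayed under 1 in all libraries, and the upstream neighbour URGCP was also higher with IL-1β (28.0, 27.9 and 27.5 with IL-1β, against 21.6, 20.1 and 20.6 in untreated libraries; log2 fold change 0.41, limma adjusted p = 1.20e-04). MRPS6 shares 273 exon bases on its strand with SLC5A3, an inositol transporter, which had 4.30, 4.55 and 4.12 with IL-1β, against 6.17, 7.001 and 6.76 in untreated libraries (log2 fold change -0.52, limma adjusted p = 0.00224). MRPL37 shares 140 exon bases on the opposite strand with CYB5RL, which was lower with IL-1β (-0.40, adjusted p = 0.0375) and higher in PBSL plus IL-1β than in IL-1β alone (0.50, adjusted p = 0.0196). MRPL33 shares 324 exon bases on its strand with BABAM2, which was lower in PBSL plus IL-1β than in IL-1β alone (-0.26, adjusted p = 0.0351). For MRPL34, the opposite-strand gene ABHD8 gave 14.3, 13.7 and 10.5 in PBSL plus IL-1β, against 11.8, 12.7 and 13.3 in IL-1β alone, and did not pass (adjusted p = 0.907). The opposite-strand genes SSBP3 of MRPL37 and PELI3 of MRPL11 did not pass with IL-1β alone over untreated (limma adjusted p = 0.243 and 0.1055). Nor did they in PBSL plus IL-1β over IL-1β alone (0.903 and 0.2885). MRPL12 shares 68.2% of its exon bases on its strand with AC139530.2, whose values stayed under 1 in all libraries. The part of shared reads in these results was not tested.

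Other genes of the mitochondrial translation system were taken from lists. Of 25 tested assembly factors of the mitochondrial ribosome, 8 rose (32.0%, against 11.5% of all tested genes) and none fell in PBSL plus IL-1β over IL-1β alone, with a median log2 fold change of 0.15. At an unadjusted p under 0.05 in limma, 13 were higher and 0 lower. For this and the other unadjusted counts of the list, no share of all tested genes was counted. They included MALSU1, which binds the large subunit late in its assembly (13.6, 16.5 and 15.6 in PBSL plus IL-1β, against 11.9, 11.9 and 12.1 in IL-1β alone; limma adjusted p = 0.0114), TRMT2B, a methyltransferase acting on mitochondrial RNA (0.24 on the log2 scale, adjusted p = 0.0218), and MPV17L2 (0.20, adjusted p = 0.0228). With IL-1β alone over untreated, 3 assembly factors fell, at 12% a smaller share than the 16.0% of all tested genes, and none rose (4 and 1 at an unadjusted p under 0.05 in limma). Among them was TFB1M, which dimethylates the small ribosomal RNA (4.02, 4.48 and 4.54 with IL-1β, against 5.54, 5.34 and 5.18 in untreated libraries; log2 fold change -0.25, limma adjusted p = 0.0145). ERAL1, an assembly GTPase, and TRMT2B were the others (adjusted p = 0.0393 and 0.0488). Over untreated cells PBSL plus IL-1β had 7 assembly factors higher (28.0%, against 22.3% of all tested genes) and none lower (11 and 1 at an unadjusted p under 0.05 in limma).

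Of 17 tested translation factors, 2 rose in PBSL plus IL-1β over IL-1β alone (11.8%, near the 11.5% of all tested genes), the ribosome recycling factor MRRF (0.30, adjusted p = 0.0154) and the membrane insertase OXA1L (0.14, adjusted p = 0.0452). The elongation factor TSFM rose with IL-1β alone over untreated (0.22, adjusted p = 0.0122), as the only translation factor called there (5.88%, against 16.2% of all tested genes). It also rose with PBSL plus IL-1β over untreated (0.34, adjusted p = 7.20e-04), where 3 translation factors were higher (17.6%, against 22.3%). Of 20 mitochondrial aminoacyl-tRNA synthetases and related enzymes, GATB, CARS2 and RARS2 fell with IL-1β alone over untreated (15%, against 16.0% of all tested genes), and 1 rose (5.0%, against 16.2%). Of 17 genes for mitochondrial transcription and RNA processing, TFAM, which packages and transcribes mitochondrial DNA, and FASTKD5 rose in PBSL plus IL-1β over IL-1β alone (0.32 and 0.23, adjusted p = 0.0274 and 0.0221), again 11.8%, near that of all tested genes. Of 5 mitochondrial ribosomal proteins without an MRP name, only PTCD3 was called (20.0%, against 11.5% of all tested genes higher). PTCD3 had 12.3, 7.70 and 16.0 in PBSL plus IL-1β, against 6.54, 7.06 and 7.24 in IL-1β alone (limma adjusted p = 0.0216). Its library 2 lay near the IL-1β libraries.

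Among 8 tested regulators of mitochondrial biogenesis, NRF1, which binds promoters of nuclear mitochondrial genes, had 7.28, 7.64 and 7.34 in PBSL plus IL-1β, against 5.34, 5.48 and 5.46 in IL-1β alone. The groups did not overlap, and the log2 fold change was 0.39 ± 0.07 (limma adjusted p = 0.00415). GABPB1, a subunit of the ETS factor GABP, and YY1 rose by 0.24 and 0.23 on the log2 scale (adjusted p = 0.0326 and 0.042). These 3 of 8 were 37.5%, against 11.5% of all tested genes, and none fell. Over untreated cells PBSL plus IL-1β had 3 higher (37.5%, against 22.3%), GABPB1 among them (0.38, limma adjusted p = 0.00111). In that comparison 1 was lower (12.5%, against 19.3%). With IL-1β alone over untreated, 1 was higher and 1 lower (12.5% each, against 16.2% and 16.0%). The lower gene was PPARGC1A in both. PPARGC1A, a coactivator of these factors, had 0.816, 0.744 and 0.669 with IL-1β, against 1.51, 1.66 and 1.68 in untreated libraries. It entered the test through the untreated libraries alone, all others being under 1, so its difference is a description.

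Set beside the most similar gene families, the mitochondrial ribosomal genes gave these shares. In PBSL plus IL-1β over IL-1β alone 30.8% of 78 members were higher, against 9.76% of 82 cytosolic ribosomal proteins and 13.6% of 81 oxidative phosphorylation subunits, with median log2 fold changes of 0.17, 0.041 and 0.066. With IL-1β alone over untreated, 10.3% of members were lower, against 14.6% of cytosolic ribosomal proteins and 39.5% of oxidative phosphorylation subunits, with medians of -0.068, -0.090 and -0.16. In PBSL plus IL-1β over untreated, 23.1% of members were higher and 5.13% lower, against 2.44% and 2.44% of cytosolic ribosomal proteins and 3.7% and 23.5% of oxidative phosphorylation subunits. The differences between families were not tested.

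**Figure D5:**
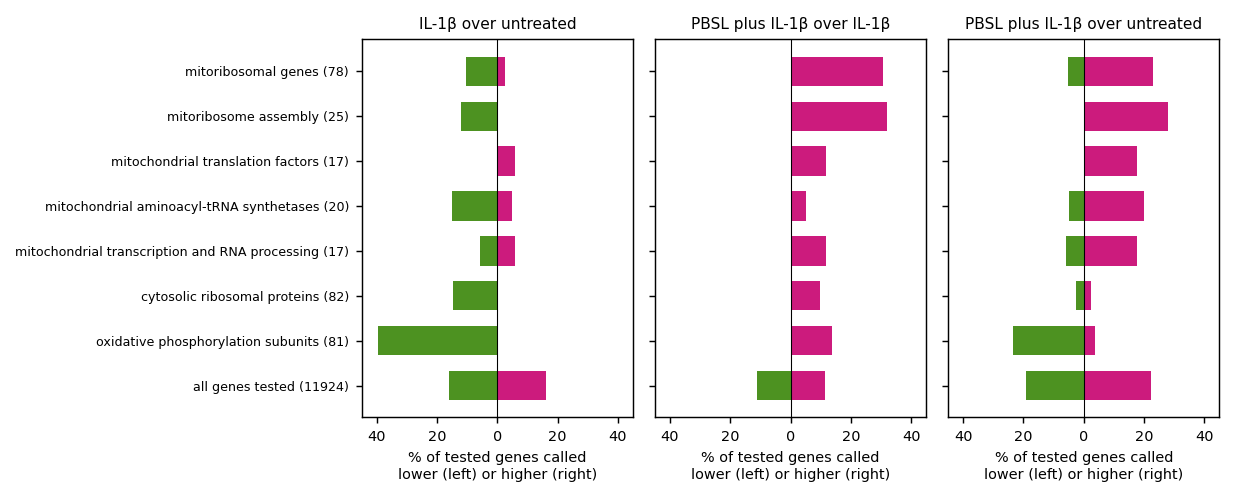
Share of tested genes called lower (left of 0) or higher (right of 0) in each comparison, for the mitochondrial ribosomal genes, related lists and all 11924 tested genes, with the number tested in brackets. In the middle panel 30.8% of mitochondrial ribosomal genes and 32.0% of assembly factors are called higher, against 11.5% of all genes.

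Within the set, each member was compared over the 9 libraries with a mean pattern to which it also contributed. How many of all tested genes correlated as well with that pattern was not counted. The correlation (Pearson) of a member with the mean standardized pattern of the members had a median of 0.70 and reached 0.93 in MRPS18B, while MRPL33 (-0.66), MRPS28 (-0.21), MRPS14 (-0.11) and MRPS24 (0.056) followed it least. Outside the set, the tested genes most like that pattern were FBL (0.98), the methyltransferase of the nucleolus, PHF19 (0.98), POLR2C (0.98), a subunit of RNA polymerase II, KHSRP (0.98) and TRAP1 (0.98), a mitochondrial chaperone. FBL had 95.0, 118 and 107 in PBSL plus IL-1β, 82.2, 77.3 and 82.8 in IL-1β alone and 96.7, 83.6 and 89.8 in untreated libraries. These correlations describe 9 libraries that all points share, in 3 groups, and carry no test.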

How the data were processed

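The table held normalized expression values (signal, never negative) that the authors had deposited for 9 libraries. Per the labels' protocols, mRNA libraries were made with a directional kit, and per the submitters' processing notes Trim Galore, STAR (hg38) and HTSeq were used. The normalization formula and read depth are not given in the sources used here, so the counting error of the values cannot be computed. They summed to 523758 to 553196 per library.

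A gene entered the test when 3 or more libraries had it at 1 or higher (11924 of 19389, all 78 members among them). A pseudocount of 1 was added before log2, which understates changes of low genes. One model over the 9 libraries (limma 3.58.1, R 4.3.3, variance trend, 6 residual degrees of freedom, tested on simulated data) gave 2-sided p-values, with Benjamini-Hochberg adjustment over all tested genes and calls below 0.05. Positions came from GENCODE 29 (GRCh38), sequences from RefSeq, and 130 of 131 list entries matched a row.

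The 8 largest called changes in each direction of each comparison were named, with the 5 highest and 5 lowest means, MRPS36 and up to 3 called genes of each list by p. Other members were named after their values were seen. A result for 1 gene of these lists is not reported here. The members and lists were chosen with earlier results of these data known. No 2 libraries were identical. Alternatives were 2 rescalings, 2 pseudocounts, 2 filters, a fit over 2 groups, a replicate block, removal of a length and GC trend, and leaving out each of the 9 libraries.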

Additional observations from a re-analysis of the deposited data

How the results depend on the processing

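No median over the members changed sign in any setting, while the counts of called members moved. PBSL plus IL-1β over IL-1β alone had 1 member lower with upper-quartile rescaling, where 1665 of all 11924 tested genes were called lower. It also had 1 member lower once a trend on length and GC had been taken out. In that setting 1488 of 11904 tested genes were called lower. PBSL plus IL-1β over untreated gave 7 higher and 7 lower under upper-quartile rescaling (15.7% and 24.9% of all tested genes). The median there was 0.0331 on the log2 scale. With no filter that comparison gave 12 higher and 2 lower (14.4% and 14.9% of all tested genes). With only those 2 groups fitted it gave 9 higher and 1 lower (17.8% and 16.2% of all tested genes). The 2-group fit of IL-1β alone over untreated gave 16 of 78 members lower, where 21.2% of all tested genes were called lower.

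Leaving out 1 library at a time gave 1 to 2 higher, 4 to 10 lower and 2935 to 4273 of all genes called for IL-1β alone over untreated, with medians from -0.0886 to -0.0491. It gave 9 to 42 higher, 0 to 1 lower and 1314 to 3904 of all genes for PBSL plus IL-1β over IL-1β alone, with medians from 0.137 to 0.2. For PBSL plus IL-1β over untreated it gave 8 to 25 higher, 0 to 3 lower and 3912 to 5413 of all genes, with medians from 0.0768 to 0.136. The cause of these moves was not tested.

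Deviations of same-numbered libraries from their group means correlated at -0.225 to 0.0681, and those of different-numbered libraries at -0.111 to 0.196. Such weak values show no pairing by replicate number and cannot exclude one. With a replicate block, PBSL plus IL-1β over IL-1β alone had 18 higher, where 8.93% of all tested genes were higher. PBSL plus IL-1β over untreated then had 13 higher and 1 lower (20.2% and 17.8% of all tested genes). IL-1β alone over untreated had 2 higher and 8 lower (14.9% and 14.2%). Without a stated depth, the precision of low values is unknown.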
